A study of Mus musculus with 2 samples.

Results

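Low-RNA germ cell barcodes are barcodes of the single-cell libraries that carried the germ cell transcripts Ddx4 and Dazl but fewer than 10000 unique molecular identifiers (UMIs, each standing for 1 captured RNA molecule). They were chosen from measured values: at least 750 genes, at most 10% of UMIs from mitochondrial genes, 2 or more UMIs from Ddx4 plus Dazl, amounting to 3 or more per 10000, and fewer than 5 per 10000 of the somatic genes Clu, Acta2, Dlk1 and Dcn. This gave 311 barcodes of 13789 that passed the limits on genes and mitochondrial UMIs, 272 of 5077 in the control library and 39 of 8712 in the Brca1 vKO library. The same gene rule gave 809 germ barcodes of at least 10000 UMIs, here called deep, 610 in control and 199 in Brca1 vKO.

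The study compared the testes of mice at postnatal day 7, a littermate control and a Brca1 vKO animal. The vKO mouse carried 1 floxed and 1 deleted Brca1 allele and a Cre driven by the Vasa promoter, which acts in germ cells from before birth, so its somatic cells also lacked 1 copy. Each genotype was represented by 1 droplet library, and the authors loaded more cells for the vKO library. With 1 library per genotype no test between genotypes was possible, and every interval given here is a 95% interval (exact binomial for shares, exact Poisson or conditional for counts and ratios) that covers counting error only.

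Ddx4 encodes an RNA helicase and Dazl an RNA-binding protein, and both mark germ cells of the testis. At this age the germ cells are mostly spermatogonia, which include stem cells that respond to GDNF through GFRA1 and RET, progenitors that express SOX3, and differentiating cells that express KIT and STRA8. Within a cell, the long noncoding RNA Malat1 stays in the nucleus, unspliced transcripts of long genes are nuclear, mitochondrial mRNAs stay in the mitochondria, and mRNAs of ribosomal proteins are short and mostly cytoplasmic.

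The deposited libraries held 5812 barcodes and 120568700 UMIs in control and 9456 barcodes and 165062097 UMIs in Brca1 vKO. The libraries shared 21 barcode sequences, none of them of a low-RNA germ barcode. The doublet caller Scrublet marked 2.95% and 3.03% of the retained barcodes, 0 of the 272 low-RNA germ barcodes in control and 1 of the 39 in Brca1 vKO. In the text below, Clu-rich barcodes, which carried Clu at 10 or more per 10000 UMIs and failed the germ rule, serve as a somatic comparison, since Clu is a Sertoli cell gene. There were 350 Clu-rich barcodes under 10000 UMIs in control and 626 in Brca1 vKO. Their medians were 4051.5 and 6629.5 UMIs, against 19114 and 16693 in Clu-rich barcodes of at least 10000 UMIs. In Brca1 vKO 275 of the 626 had 7500 to 10000 UMIs, next to 1563 Clu-rich barcodes with 10000 to 15000. The limit thus cut germ and Clu-rich barcodes at different points of their UMI ranges, and the 2 kinds were not matched in depth.

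The targeted gene was read first. In control, Brca1 (chr11:101488764-101551955, GRCm38) had 32.6 CPM (UMIs of the gene per 1000000 UMIs, summed over the barcodes of a group) in low-RNA germ barcodes and 73.9 in deep ones. In Brca1 vKO it had 13.2 CPM from 2 UMIs in low-RNA and 45.4 in deep germ barcodes. The floxed exons lie inside the gene and the assay reads the 3′ end, so these values do not check the deletion.

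The limit of 10000 UMIs sets the low-RNA and deep germ barcodes apart by choice. In control, the median was 3239.5 UMIs and 1586.5 genes per low-RNA barcode, against 44074.5 UMIs and 7682.5 genes per deep barcode. In Brca1 vKO, the medians were 3343 UMIs and 1620 genes against 36008 UMIs and 7129 genes. In control 55 germ barcodes had under 2000 UMIs, 64 had 2000 to 3000, 35 had 7500 to 10000, 27 had 10000 to 15000, 23 had 15000 to 20000, and 136 had 30000 to 40000. In Brca1 vKO 10 germ barcodes had 3000 to 4000 UMIs, 4 had 7500 to 10000, 7 had 10000 to 15000, 8 had 15000 to 20000, and 65 had 30000 to 40000. Germ barcodes lay on both sides of the limit in both libraries.

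**Figure D1:**
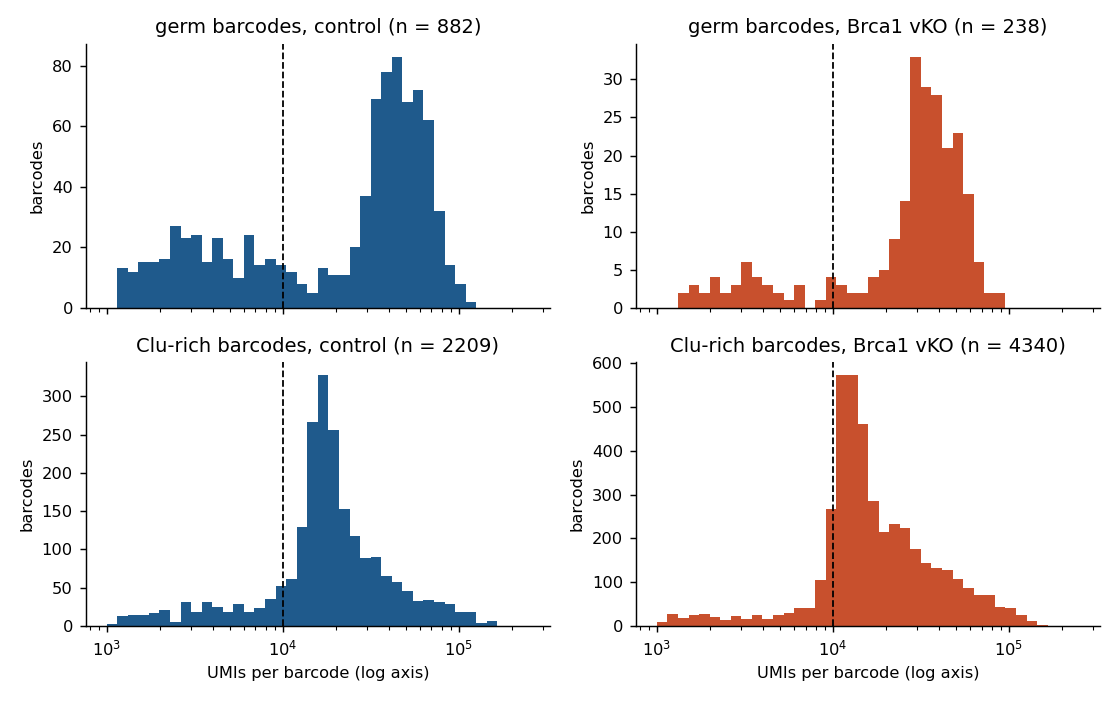
Number of barcodes by UMIs per barcode (log axis) for germ barcodes (top) and Clu-rich barcodes (bottom) in the control (left) and Brca1 vKO (right) libraries; the dashed line is the limit of 10000 UMIs. The germ barcodes have a main peak above 20000 UMIs and a broad spread of lower values that runs across the limit, below which lie 272 barcodes in control and 39 in Brca1 vKO.

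Low-RNA barcodes made up 30.8% (27.8 to 34.0) of all germ barcodes in control and 16.4% (11.9 to 21.7) in Brca1 vKO. Among Clu-rich barcodes the shares under 10000 UMIs were 15.8% (14.3 to 17.4) and 14.4% (13.4 to 15.5). Of all retained barcodes, low-RNA germ barcodes were 5.36% in control and 0.448% in Brca1 vKO, a ratio of 0.0836 (0.0581 to 0.117). The same ratio was 0.190 (0.161 to 0.223) for deep germ barcodes and 1.04 (0.913 to 1.19) for low-RNA Clu-rich barcodes. In these 2 libraries both kinds of germ barcode took a smaller share in Brca1 vKO; how the 2 germ ratios would vary between animals is not known from 1 library per genotype. Of the retained barcodes under 10000 UMIs, germ barcodes were 26.1% in control and 1.81% in Brca1 vKO.

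The limits of the rule touched a minority of these barcodes. Before the limits on genes and mitochondrial UMIs, 344 control and 48 Brca1 vKO barcodes under 10000 UMIs passed the gene rule. Of these, 64 and 4 had under 750 genes, and 8 and 5 had over 10% mitochondrial UMIs. A further 64 control and 7 Brca1 vKO barcodes passed on Ddx4 and Dazl but carried the somatic genes above the limit. Free RNA in the droplets can give such UMIs: of Clu-rich barcodes under 10000 UMIs, 3.51% in control and 0.475% in Brca1 vKO passed on Ddx4 and Dazl. At the UMI limit itself, the 10 control barcodes with 9000 to 10000 UMIs had a median mitochondrial share of 0.589%, and the 7 with 10000 to 11000 UMIs had 2.08%.

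The germ identity was checked with 13 germ cell genes that the rule did not use. After each barcode was thinned to 1000 UMIs, which left none out, 95.6% of control low-RNA barcodes had a UMI of at least 1 of these genes, against 91.8% of deep germ and 10.3% of low-RNA Clu-rich barcodes. Without thinning the shares were 99.6%, 100% and 28.3%. In Brca1 vKO the thinned shares were 79.5%, 77.4% and 5.75%. Uchl1, a deubiquitinating enzyme of spermatogonia, was the most abundant of them at 1466 CPM in control low-RNA and 877 in deep barcodes, and 560 and 372 in Brca1 vKO. Sohlh1, a transcription factor of spermatogonia, had 326 and 195 CPM in control and 98.8 and 60.0 in Brca1 vKO. Levels of the genes of the rule are set in part by the choice of barcodes and are given only as a description: Dazl had 1625 and 1177 CPM and Ddx4 421 and 418 in control low-RNA and deep barcodes.

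Markers of most other cell types were low. In control low-RNA germ barcodes the Leydig markers Cyp17a1 and Insl3, the macrophage markers C1qa, Csf1r and Adgre1, the neutrophil markers Ngp and S100a8 and the myoid marker Actg2 had 0 UMIs. As whole lists there, Leydig markers summed to 2.72 CPM, macrophage markers to 0.906, neutrophil markers to 4.53 and endothelial markers to 10.9. Myoid markers summed to 29.0 CPM and stromal markers to 56.2, against 20.6 and 63.0 in deep germ barcodes. Acta2 (25 UMIs) and Dlk1 (46 UMIs), which the rule limits, gave most of these 2 sums. The 5 Sertoli cell markers summed to 182 CPM in control low-RNA and 102 in deep germ barcodes. They include Clu, which both the germ and the Clu-rich rule use. Of the markers that no rule used, Aard had 81.5 CPM and Rhox8 55.3 CPM in control low-RNA germ barcodes, against 4005 and 1502 in low-RNA Clu-rich barcodes. In Brca1 vKO they summed to 316 CPM in low-RNA and 183 in deep germ barcodes, of which Aard gave 184 and 83.3. The neutrophil markers summed to 13.2 CPM in low-RNA and 236 in deep germ barcodes of Brca1 vKO, whereas control had 4.53 and 2.86. Their part in the differences below was not tested.

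Mitochondrial transcripts took a smaller share of the UMIs of low-RNA germ barcodes. In control, the median share per barcode was 0.673% (quartiles 0.260 and 1.79) in low-RNA and 5.62% (4.80 and 6.46) in deep germ barcodes. In Brca1 vKO it was 1.82% (0.609 and 3.25) against 5.93% (5.16 and 6.86). Under 1% of UMIs were mitochondrial in 161 of 272 control low-RNA barcodes (59.2%) and in 24 of 610 deep ones. In Brca1 vKO, 13 of 39 and 5 of 199 barcodes were under 1%. Low-RNA Clu-rich barcodes had a median of 2.40% in control and 4.51% in Brca1 vKO, so low-RNA germ barcodes were lower than they were in both libraries. The 2 kinds were not matched in depth, with medians of 4051.5 and 6629.5 UMIs in low-RNA Clu-rich barcodes against 3239.5 and 3343 in low-RNA germ barcodes.

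The mitochondrial mRNAs were lower together. In control, the 12 of 13 mitochondrial mRNAs that passed the minimum of 50 CPM (mean of both groups) were each at least 2-fold lower in low-RNA than in deep germ barcodes, where 18.5% of all 3638 genes compared were 2-fold lower. In Brca1 vKO 12 of 13 were 2-fold lower, with 12.9% of 3715 genes. mt-Co1, a subunit of cytochrome oxidase, had 2871 CPM in low-RNA and 10950 in deep control barcodes, and 3345 and 10515 in Brca1 vKO. Summed over the class, low-RNA barcodes had 0.276 (0.271 to 0.280) of the deep share in control and 0.400 (0.387 to 0.413) in Brca1 vKO. Clu-rich barcodes compared the same way gave 0.735 and 1.04. The respiratory chain mRNAs made in the nucleus did not share this difference: 69 of the 72 compared had log2 ratios above 0 in control, with a median of 0.45, and 71 of 74 in Brca1 vKO, with a median of 0.46, and none was 2-fold different.

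**Figure D2:**
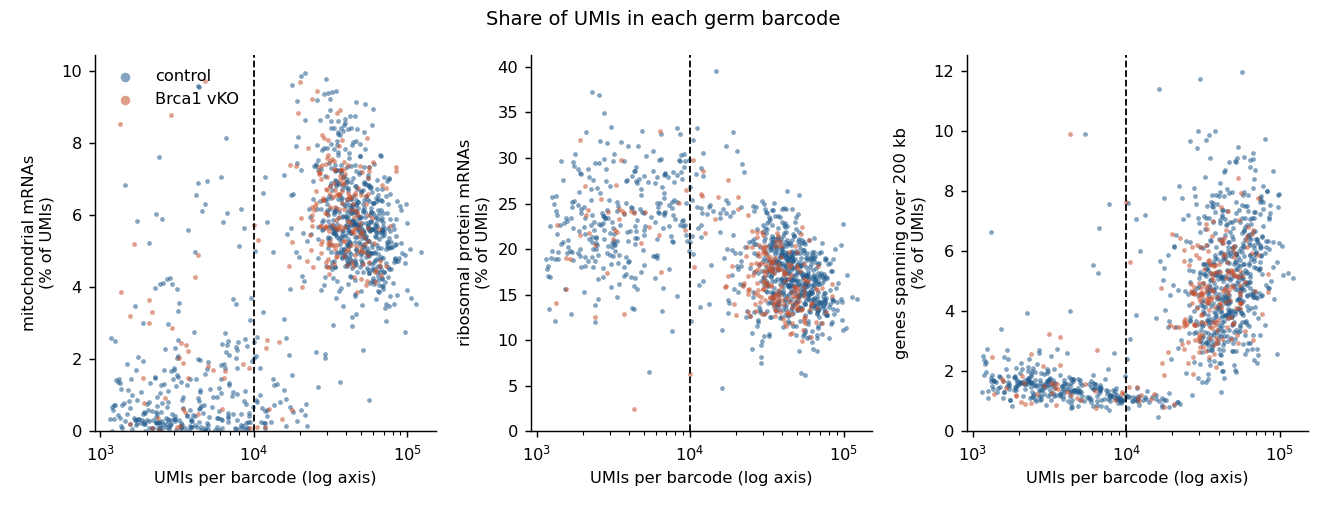
Share of UMIs in each germ barcode (y axis, %) from mitochondrial mRNAs (left), ribosomal protein mRNAs (centre) and genes spanning over 200 kb (right) by UMIs per barcode (x axis, log), with control in blue, Brca1 vKO in orange and the limit of 10000 UMIs dashed. The median share from long genes is near 1.5% in low-RNA and near 5% in deep barcodes, with values between. It is under 2.5% in 33 of 50 control barcodes with 10000 to 20000 UMIs, 8 of 54 with 20000 to 30000 and 19 of 506 above 30000.

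Malat1 was also low in control. Malat1 (chr19:5795690-5802672, GRCm38) had 356 CPM in control low-RNA and 1729 CPM in deep germ barcodes, a ratio of 0.206 (0.186 to 0.227). It had 0 UMIs in 116 of 272 control low-RNA barcodes (42.6%) and in 13 of 610 deep ones. After thinning to 1000 UMIs, 25% of low-RNA and 65.2% of deep barcodes had a Malat1 UMI, against 57.4% and 97.9% without thinning. The low-RNA Clu-rich barcodes, thinned alike, gave 56.9%. Kcnq1ot1, an imprinted antisense RNA, had 13.6 CPM in low-RNA and 113 in deep control barcodes. These were the only 2 of 15 listed nuclear-retained RNAs that passed the minimum of 50 CPM in control. Kcnq1ot1 passed through its level in deep barcodes alone, so its difference is given only as a description. The mRNAs listed as held in the nucleus with unspliced introns differed less, with class ratios of 0.852 (0.829 to 0.876) in control and 0.892 (0.829 to 0.958) in Brca1 vKO. Of the 19 of these mRNAs compared in control 5 were 2-fold lower, 14 had log2 ratios below 0 and 5 above.

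In Brca1 vKO the summed level of Malat1 rested on few barcodes. It was 2410 CPM in low-RNA and 3220 CPM in deep germ barcodes, a ratio of 0.748 (0.673 to 0.830). However, 5 of the 39 barcodes held 327 of the 366 Malat1 UMIs, and 1 alone held 247. The other 34 low-RNA barcodes had 309 CPM, and deep barcodes without their 5 highest had 3055. These 5 barcodes had a median mitochondrial share of 4.89%, against 1.73% in the other 34. In thinned barcodes, 38.5% (23.4 to 55.4) of low-RNA and 81.4% (75.3 to 86.6) of deep barcodes had a Malat1 UMI, against 74.4% and 99.0% without thinning. With barcodes of up to 20% mitochondrial UMIs admitted, the summed log2 ratio turned from -0.42 to 0.39.

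Malat1 was then read by mitochondrial share. In control it stood at 305 CPM in the 161 low-RNA barcodes with under 1% mitochondrial UMIs, 340 CPM in the 84 with 1 to 4%, and 673 CPM in the 27 with 4 to 10%. Each value lay below the 1729 CPM of deep germ barcodes. In Brca1 vKO it stood at 344 CPM in 13 barcodes, 878 CPM in 19 and 9728 CPM in 7 over the same ranges, the last above the 3220 CPM of deep barcodes. The last range includes the barcode that held 247 of the 366 Malat1 UMIs. The value of 9728 CPM thus rests mostly on 1 barcode and gives no trend with mitochondrial share. Of the control barcodes in the upper ranges, 13 and 9 lay within 10% of their lower bound.

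Ribosomal protein mRNAs took a larger share. They were 23.8% of UMIs in low-RNA and 16.7% in deep germ barcodes of control, a ratio of 1.42 (1.42 to 1.43), and 21.4% and 16.2% in Brca1 vKO, a ratio of 1.32 (1.30 to 1.33). All 79 genes had log2 ratios above 0 in both libraries, with medians of 0.50 and 0.39, and none was 2-fold higher, where 0.357% of all genes were 2-fold higher in control and 1.56% in Brca1 vKO. Low-RNA Clu-rich barcodes had a similar excess, with ratios of 1.39 and 1.29. Translation factors had log2 ratios above 0 for 17 of 20 genes in control and 18 of 20 in Brca1 vKO. Eif4a1, a helicase of translation initiation, had 1927 and 1095 CPM in control and 1692 and 1049 in Brca1 vKO. Glycolytic enzymes were likewise above 0 for 7 of 7 genes in control and 8 of 8 in Brca1 vKO, among them Gapdh at 1258 and 753 CPM in control.

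Long genes took a smaller share. Protein-coding genes were sorted by their span in the annotation, from the start to the end of the gene with introns. Genes spanning over 200 kb gave a median of 1.48% (quartiles 1.19 and 1.71) of UMIs per low-RNA barcode and 4.87% (3.65 and 6.26) per deep barcode in control. In Brca1 vKO the medians were 1.42% (1.20 and 1.77) and 4.57% (3.52 and 5.45). From the summed UMIs the ratios were 0.301 (0.297 to 0.306) in control and 0.456 (0.440 to 0.472) in Brca1 vKO. Without the 5 Brca1 vKO barcodes of most Malat1, the log2 ratio there went from -1.13 to -1.73, and it was -1.73 in control. The ratio climbed as the span shortened: in control it was 0.548 for genes of 50 to 200 kb, 1.05 for 10 to 50 kb and 1.40 for genes under 10 kb. In Brca1 vKO the same classes gave 0.621, 1.03 and 1.31. Leaving the ribosomal protein and haemoglobin genes out of the shortest class left 1.38 and 1.31.

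Clu-rich barcodes under 10000 UMIs showed the same order of classes with a smaller range, and lay closer in depth to their deep group than germ barcodes did. Genes over 200 kb had ratios of 0.485 (0.481 to 0.489) in control and 0.575 (0.572 to 0.578) in Brca1 vKO, above the germ values in both libraries. Sorting by the length of the spliced transcript gave a narrower range: 0.620 for transcripts over 4 kb and 1.41 for those under 1 kb in control germ barcodes, and 0.690 and 1.32 in Brca1 vKO. Across genes, which are not independent replicates, the log2 ratio had Pearson's r of -0.72 with the logarithm of span and -0.59 with that of transcript length in control (3638 genes), and -0.63 and -0.52 in Brca1 vKO (3715 genes). Whether reads in introns were counted is not given in the sources used here.

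**Figure D3:**
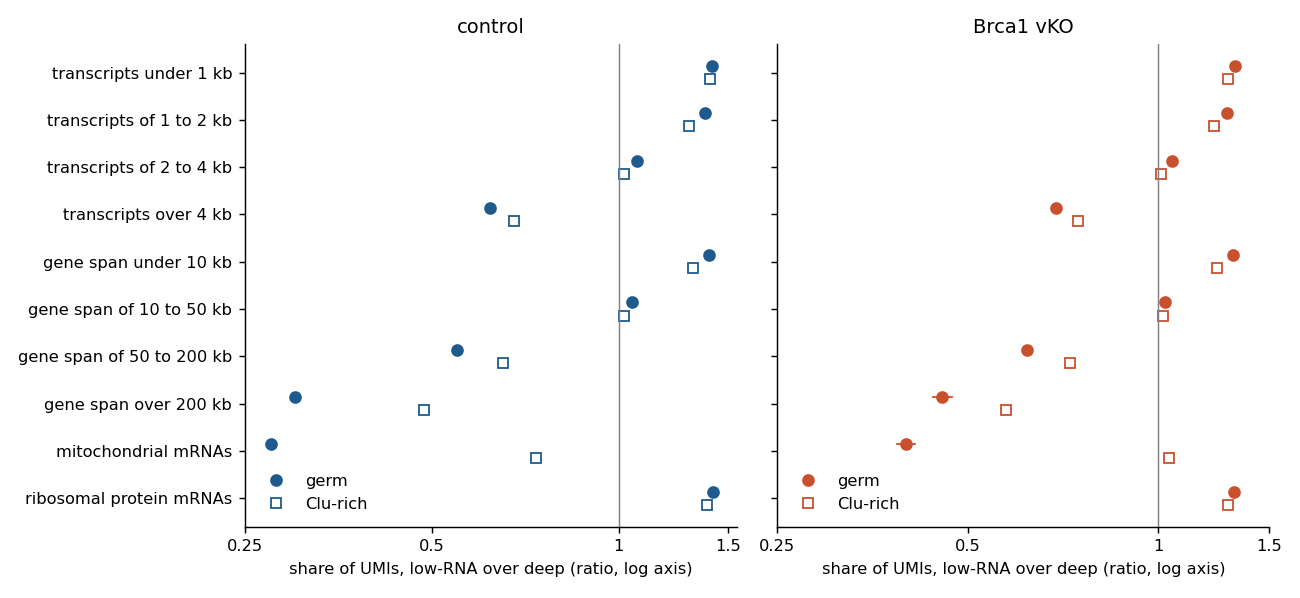
Ratio of the share of UMIs in low-RNA to that in deep barcodes (x axis, log) for protein-coding genes sorted by transcript length and by gene span, and for mitochondrial and ribosomal protein mRNAs; filled circles are germ and open squares Clu-rich barcodes, with 95% counting intervals, in control (left) and Brca1 vKO (right). Genes over 200 kb have germ ratios of 0.301 and 0.456 (log2 -1.13, or -1.73 without the 5 Brca1 vKO barcodes of most Malat1), and mitochondrial mRNAs are well below 1 in germ barcodes of both libraries.

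Gene by gene, with 10 CPM added to both levels, 673 of 3638 genes were 2-fold lower and 13 2-fold higher in control low-RNA barcodes (with DESeq2 size factors, 475 and 99). In Brca1 vKO 480 of 3715 were lower and 58 higher. Among Clu-rich barcodes, whose 2 groups lay closer in depth, 401 of 3887 genes were lower (10.3%) and 24 higher (0.617%) in control. For Clu-rich barcodes of Brca1 vKO, 63 of 4001 were lower (1.57%) and 4 higher (0.1%). Of the genes lower in low-RNA germ barcodes 356 were shared, 52.9% of the control and 74.2% of the Brca1 vKO list. The 673 genes had a median span of 118 kb and 26.9% spanned over 200 kb, against 26.2 kb and 5.72% of all genes compared. Of the 206 genes over 200 kb compared in control 179 were 2-fold lower, and of 202 in Brca1 vKO 132.

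The genes furthest down in both libraries had spans of 110 to 616 kb. Glis3, a zinc finger transcription factor (chr19:28258851-28680077, GRCm38), had 31.7 CPM in control low-RNA and 658 CPM in deep barcodes, and 151 and 919 CPM in Brca1 vKO. Its log2 ratios were -4.00 and -2.52. In Clu-rich barcodes the log2 ratio was 0.03 in both libraries, but its levels there are not reported here. The 10 CPM added pulls the ratio of a low gene toward 0, so this value does not show a stable level in Clu-rich barcodes. Foxp1, a forkhead transcription factor with a span of 597 kb, had 65.2 and 459 CPM in control and 32.9 and 439 in Brca1 vKO. Igf1r, the receptor of insulin-like growth factor 1, spans 281 kb and had 38.0 and 452 CPM in control and 65.8 and 411 in Brca1 vKO. Tmcc1, Frmd5, Esyt2, Ambra1, Aff3, Znrf3, Bnc2, Hivep2 and Tenm3 completed the 12, with control log2 ratios between -3.61 and -2.43. Leaving out the 5 Brca1 vKO barcodes of most Malat1 moved the log2 ratio of Glis3 there to -4.78, that of Igf1r from -2.47 to -4.55, that of Bnc2 from -2.44 to -5.48, that of Znrf3 from -2.46 to -3.68, that of Hivep2 from -2.64 to -3.66 and that of Tmcc1 from -2.95 to -3.68. The Brca1 vKO levels of these 6 genes thus rested in part on few barcodes. The other 6 moved by less than 1.5-fold but had few UMIs to lose in Brca1 vKO low-RNA barcodes. Ambra1 and Esyt2 had 1 UMI each, Frmd5 2, Aff3 3, Tenm3 4 and Foxp1 5.

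Spermatogonial markers differed among themselves. Gfra1 (chr19:58235604-58455909, GRCm38), the GDNF co-receptor, spans 220 kb and had 15.4 CPM in low-RNA and 170 CPM in deep control barcodes, and 79.0 and 348 CPM in Brca1 vKO. Its partner Ret, of 46.0 kb, had 10.9 and 71.3 CPM in control and 26.3 and 120 in Brca1 vKO. Zbtb16, which encodes PLZF and spans 182 kb, had 73.4 and 278 CPM in control and 125 and 206 in Brca1 vKO. Kit, the receptor of differentiating spermatogonia with a span of 81.8 kb, had 24.5 and 59.8 CPM in control, and in Brca1 vKO 19.8 from 3 UMIs and 40.5.

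Sox3, Stra8 and Id4 had similar or higher levels in control low-RNA barcodes. Sox3, of 2.06 kb, had 61.6 and 46.0 CPM. Stra8, a target of retinoic acid of 19.2 kb, had 270 and 177 CPM. Id4, a stem cell factor of 4.80 kb, had 41.7 and 44.6 CPM, its log2 ratio of -0.08 changing sign with other scalings. Tex101, a germ cell surface protein of 8.67 kb, had 70.6 and 131 CPM. The 5 stem cell markers as a sum had 0.283 (0.231 to 0.343) of the deep share in control and 0.605 (0.464 to 0.778) in Brca1 vKO, the 5 progenitor markers 1.35 (1.17 to 1.55) and 1.51 (0.795 to 2.60), and the 5 differentiation markers 1.24 (1.12 to 1.37) and 0.852 (0.503 to 1.35). In control, Stra8 alone gave 270 of the 363 CPM of the differentiation markers in low-RNA barcodes and 177 of 293 in deep ones. Kit, another of the 5, was lower in control low-RNA barcodes, so the set did not move together. The stem cell markers went both ways in Brca1 vKO. Gfra1 and Ret had log2 ratios of -2.01 and -1.84 there, but Id4 had 0.55, Etv5 0.49 and Nanos2, from 1 UMI, 0.02. Without the 5 Brca1 vKO barcodes of most Malat1, Etv5 had 0.09. With fixed numbers of UMIs, 1.84% of low-RNA and 15.4% of deep control barcodes had a Gfra1 UMI, whereas 5.15% and 4.59% had a Sox3 UMI. Unthinned, the shares were 4.41% and 59.0% for Gfra1 and 21.7% and 61.5% for Sox3.

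**Figure D4:**
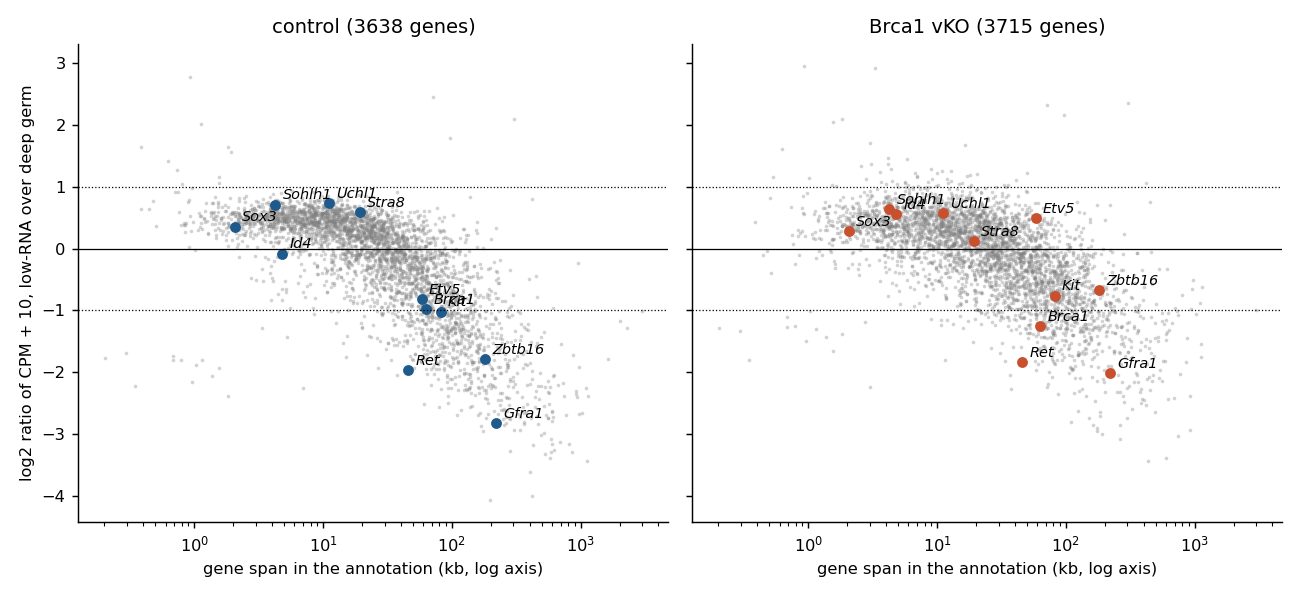
Log2 ratio of CPM plus 10 in low-RNA over deep germ barcodes (y axis) by the span of the gene (x axis, kb, log) for 3638 genes in control (left) and 3715 in Brca1 vKO (right), with germ cell markers and Brca1 named; dotted lines mark 2-fold. Ratios sit above 0 for short genes and go down as the span lengthens, and Gfra1 and Sox3 lie at opposite ends.

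The few genes with higher levels were led by sequences tied to ribosomal RNA. Gm42418 (chr17:39846958-39848788, GRCm38), a noncoding gene known to overlap ribosomal RNA sequence, had 19085 CPM in low-RNA and 6112 in deep control barcodes, and 22478 and 5249 in Brca1 vKO. AY036118, which lies within it on the opposite strand, had 921 and 127 CPM in control and 1225 and 149 in Brca1 vKO. The overlap leaves the split of reads between them uncertain. Cdk8 had 1251 and 222 CPM and Cmss1 2659 and 615 CPM in control. These genes were also higher in low-RNA Clu-rich barcodes, with log2 ratios of 1.26 for Gm42418 and 1.88 for AY036118 in control.

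Replication-dependent histone genes were the other group with high levels. In control the 67 listed genes as a sum had 2.59 times the deep share. Of these, 9 passed the minimum and 6 of them were 2-fold higher, where 0.357% of all genes were; a gene can pass through its level in low-RNA barcodes alone. Hist1h4d had 693 and 164 CPM and Hist1h1a, a linker histone, 437 and 176. In Brca1 vKO 1 of 7 was 2-fold higher, where 1.56% of all genes were, and the class ratio was 1.39 (1.24 to 1.57). Clu-rich barcodes gave 2.15 and 1.16. The replication and mitosis genes that accompany histone synthesis had 4863 CPM in low-RNA and 4404 CPM in deep control barcodes, and a ratio of 0.962 (0.892 to 1.04) in Brca1 vKO, with Top2a at 425 and 419 CPM in control.

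Haemoglobin and red blood cell transcripts had 1464 CPM in control low-RNA and 702 in deep germ barcodes, and 217 and 42.1 in Brca1 vKO. Low-RNA Clu-rich barcodes had 1316 and 153 CPM, which are close to the low-RNA germ values. With mitochondrial UMIs limited to 5%, the log2 ratio in control germ barcodes turned from 1.06 to -0.31.

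The composition of low-RNA barcodes extended past 10000 UMIs. Of low-RNA barcodes, 255 of 272 in control (93.8%) and 33 of 39 in Brca1 vKO (84.6%) had under 2.5% of UMIs from genes over 200 kb. Of germ barcodes with 10000 to 20000 UMIs, 33 of 50 (66.0%) and 10 of 15 (66.7%) were also under 2.5%. With 20000 to 30000 UMIs 8 of 54 and 4 of 43 were, and above 30000 UMIs 19 of 506 and 2 of 141. Of control barcodes, 27 low-RNA ones and 2 with 10000 to 20000 UMIs lay within 0.5 percentage points of 2.5%, which is a point on a range and not a border between types. Median mitochondrial shares in control germ barcodes were 0.523% under 2500 UMIs, 0.689% at 2500 to 5000, 1.92% at 10000 to 20000 and 6.07% at 20000 to 40000. Of Clu-rich barcodes under 10000 UMIs, 71.1% in control and 40.7% in Brca1 vKO had under 2.5% from long genes.

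The genotypes were then set side by side within low-RNA germ barcodes. The 39 Brca1 vKO barcodes held 151882 UMIs in all, against 1104045 in control, and low levels in Brca1 vKO rested on few UMIs. Of 3195 genes compared, 161 were 2-fold higher in Brca1 vKO (5.04%) and 74 lower (2.32%). In deep germ barcodes 41 of 4101 were higher (1%) and 25 lower (0.61%).

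Several targets of p53 were higher in the Brca1 vKO library. The 22 listed p53 targets and death effectors, with no minimum applied, summed to 848 CPM in control and 1982 CPM in Brca1 vKO low-RNA barcodes, and to 782 and 1569 CPM in deep ones. Of the 22, 9 passed the minimum among low-RNA barcodes, some of them through the Brca1 vKO level alone, so the number past 2-fold is not read against all genes. Pmaip1, which encodes the death-promoting protein NOXA, had 26.3 CPM (29 UMIs) in control and 283 CPM (43 UMIs) in Brca1 vKO. Cdkn1a, which encodes the cell cycle inhibitor p21, had 18.1 CPM (20 UMIs) and 191 CPM (29 UMIs). Ccng1, a cyclin induced by p53, had 102 and 290 CPM. Phlda3, Trp53inp1 and Aen had log2 ratios of 2.24, 1.15 and 1.12. In deep germ barcodes Pmaip1 had 27.7 and 120 CPM, Cdkn1a 12.2 and 149 CPM and Ccng1 64.8 and 250 CPM. Mdm2, which limits p53, had log2 ratios of 0.50 in low-RNA and 0.52 in deep barcodes. Among low-RNA barcodes Bax had 386 CPM in control and 474 CPM in Brca1 vKO, and Ei24 60.7 and 85.6 CPM. Both differed by under 2-fold, so the listed genes were not raised alike.

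Some immediate early genes were higher as well. The 20 listed immediate early and stress genes, with no minimum applied, summed to 7423 CPM in control and 9461 CPM in Brca1 vKO low-RNA barcodes, and to 5369 and 6775 CPM in deep ones. Jun had 22.6 and 125 CPM, Btg2, which p53 also induces, 54.3 and 250 CPM and Egr1 70.6 and 230 CPM in control and Brca1 vKO. Of the heat shock genes in the list, Hspa8 had 2629 and 3187 CPM, Hsp90aa1 2581 and 2996 CPM and Dnaja1 1128 and 1113 CPM. These heat shock genes gave most of both low-RNA sums, and Dnaja1 was not higher in Brca1 vKO.

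Single barcodes carried much of some of the differences. Gm26917, a noncoding gene, had 35.3 CPM in control and 1040 CPM in Brca1 vKO, and 1 barcode held 83 of its 158 UMIs. Without that barcode Brca1 vKO had 508 CPM. Kcnc2, a potassium channel gene, had 16.3 and 184 CPM, and 1 barcode held 20 of its 28 UMIs, without which Brca1 vKO had 56.4 CPM. Both levels stayed above those of control, but on few barcodes. The Gm26917 UMIs came from 5 of the 39 Brca1 vKO barcodes and those of Kcnc2 from 6. The 5 barcodes of most Malat1 held 103 of the 158 Gm26917 UMIs. By contrast, the 43 UMIs of Pmaip1 came from 20 of the 39 barcodes, with at most 8 in 1 barcode, and the 29 UMIs of Cdkn1a from 17, with at most 5.

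Lower in Brca1 vKO were Crabp1, a retinoic acid binding protein, at 352 CPM in control and 52.7 CPM in Brca1 vKO low-RNA barcodes, and at 182 and 40.7 in deep ones. Hbb-bs had 766 and 125 CPM and Hba-a1 478 and 79.0 CPM. Hist1h2aa, a testis histone, had 175 and 32.9 CPM in low-RNA but 49.1 and 55.7 in deep barcodes. In control low-RNA barcodes 1 barcode held 46 of its 193 UMIs, without which control had 134 CPM. The Brca1 vKO low-RNA value came from 5 UMIs, 3 of them in 1 barcode. Stra8 had 270 and 59.3 CPM in low-RNA and 177 and 53.7 in deep barcodes, and Sox3 61.6 and 13.2 CPM, the last from 2 UMIs.

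**Figure D5:**
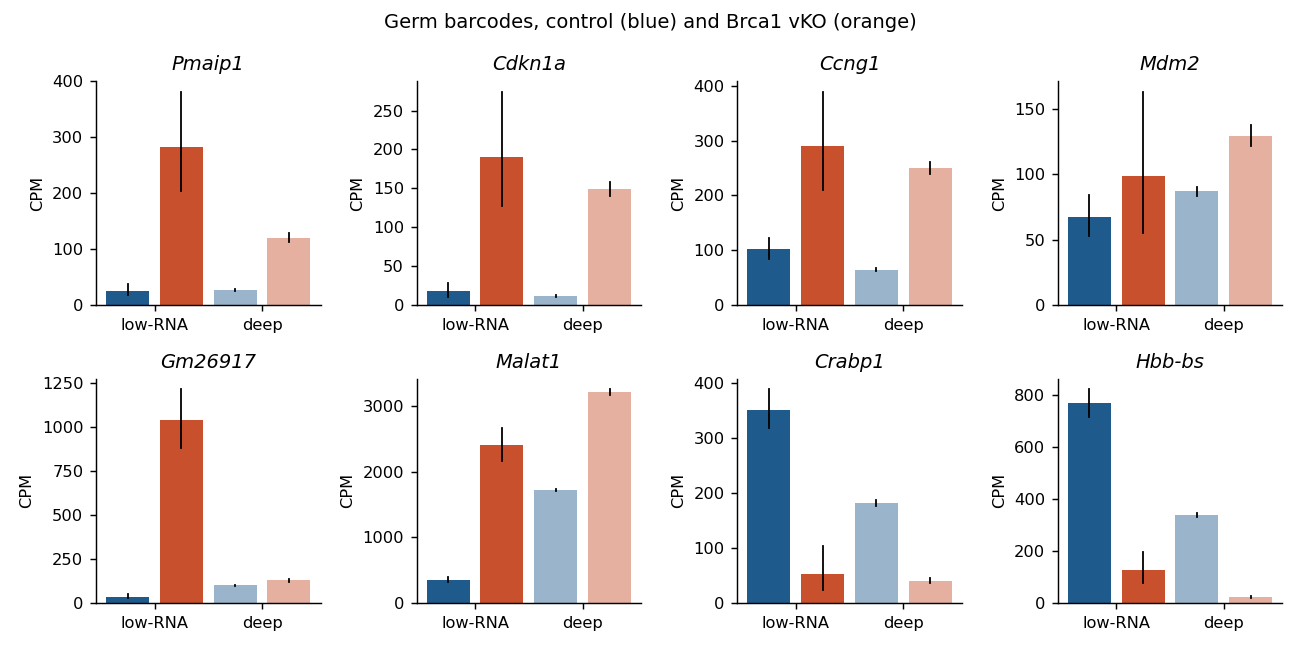
CPM (y axis) of 8 genes in low-RNA (full colour) and deep (pale) germ barcodes, control in blue and Brca1 vKO in orange, with 95% Poisson intervals of the summed UMIs; each bar is 1 library. Pmaip1, Cdkn1a and Ccng1 are higher in Brca1 vKO in both kinds of barcode, and 1 low-RNA barcode holds 83 of the 158 Gm26917 UMIs in Brca1 vKO.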

How the data were processed

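Testes of 1 control and 1 Brca1 vKO mouse were dissociated and run on the 10x Genomics Chromium platform. Per the labels and the study's methods, the authors deposited raw UMI counts per gene and barcode from Cell Ranger 6.0.2 with the mm10 reference; whether introns were counted is not given in the sources used here. Gene spans and transcript lengths came from GENCODE vM21 (32235 of 32285 gene IDs matched), with the longest transcript used for length.

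UMIs were summed over each group of barcodes and divided by the group total (CPM). Genes with a mean of at least 50 CPM were compared by the log2 ratio of CPM plus 10, which understates the change of low genes, and 2-fold was called a difference. The members, gene lists and comparisons were chosen with earlier results of these data known. Named genes were Brca1, the members of the germ cell lists, the 4 most abundant of each other list, the 12 furthest in each direction in both libraries, and the 4 furthest in each direction between genotypes at a mean of at least 100 CPM; other members of the p53 and stress lists were named after their values were seen. Likewise 6 genes each way were ranked by the difference between germ and Clu-rich log2 ratios in control, of which 1 is not reported here. Doublets were marked with Scrublet in scanpy 1.11.5 and kept. Python 3.11.15, scipy 1.17.1, edgeR 4.0.16 and DESeq2 1.42.0 (scaling factors only) were used. The ratio and its call were tested on simulated counts: of 50 genes made 4-fold higher and 50 made 4-fold lower, 50 and 50 were called in each simulated library pair, and of unchanged genes 0 of 3854 in control and 26 of 3864 in Brca1 vKO. The changed genes were well expressed, so a 2-fold call of them was close to certain beforehand. The simulated sums had no spread between barcodes, so these counts check the calculation and do not measure the error of the real calls.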

Additional observations from a re-analysis of the deposited data

How the results depend on the processing

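No paired analysis was possible because each genotype had 1 library and the labels gave no shared replicate numbers, and no replicate could be left out. The share of low-RNA barcodes among germ barcodes kept its order, higher in control than in Brca1 vKO, under every barcode alternative. The share of low-RNA germ barcodes among all retained barcodes, Brca1 vKO over control, stayed between 0.0680 and 0.0901. Among germ barcodes of control the low-RNA share was 24.1% with low-RNA set under 5000 UMIs, 27.3% with somatic genes below 2 per 10000, and 34.1% and 27.6% with at least 500 and 1000 genes. It was 56.7% with mitochondrial UMIs limited to 5%, which removed most deep barcodes and raised the Brca1 vKO share to 43.0%.

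The count of 2-fold higher genes was the least stable. In control it was 13 as reported, 57 with edgeR TMM factors (506 lower), 99 with DESeq2 size factors and 22 with no CPM minimum. TMM and DESeq2 scaling moved all control log2 ratios up by 0.24 and 0.30 and those of Brca1 vKO by under 0.1. In Brca1 vKO the count was 58 as reported, 108 with low-RNA under 5000 UMIs, 32 with a limit of 15000 UMIs, 96 with the stricter somatic limit and 274 with no CPM minimum. Without a minimum, 1903 genes were lower in control and 1921 in Brca1 vKO. Leaving out the 5 Brca1 vKO barcodes of most Malat1, an alternative chosen after seeing the data, gave 96 higher and 683 lower genes. With mitochondrial UMIs limited to 5%, haemoglobin and red blood cell transcripts turned to a log2 ratio of -0.31 and Hbb-bs to -0.15 in control; the cause was not tested. With up to 20% allowed, the Malat1 log2 ratio in Brca1 vKO went from -0.42 to 0.39. The gene classes kept their direction in 578 of 584 planned checks and the named genes in 1698 of 1728. With 39 barcodes in Brca1 vKO, levels below 100 CPM there rest on few UMIs.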

Other observations

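Beside the genes of the report, 6 genes were ranked in each direction by how far the log2 ratio of low-RNA over deep barcodes lay from that of Clu-rich barcodes in control. Among the lowest in germ were Fmnl2, a formin, at -2.73 in germ and -0.69 in Clu-rich barcodes, Auts2 at -3.43 and -1.59, and Igf1r at -3.26 and -1.33, with Cers6 and 2610307P16Rik. Auts2 had 130 CPM in low-RNA and 1498 CPM in deep control germ barcodes, and 395 (285 without the barcode of most UMIs) and 1361 in Brca1 vKO.

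Highest were Irf1, Epc1, Alas1, Fos, Cstf3 and Pwwp3b, short or medium genes whose germ log2 ratios lay between -0.47 and 0.70 while those in Clu-rich barcodes lay between -1.37 and -0.22. Alas1, the first enzyme of haem synthesis, had 72.5 and 40.6 CPM in control low-RNA and deep germ barcodes. Fos had 78.8 and 101 CPM in germ barcodes of control. The immediate early and stress genes as a sum had 1.38 (1.35 to 1.41) times the deep share in control germ barcodes and 0.781 (0.767 to 0.795) times in Clu-rich ones, and 1.40 and 0.962 in Brca1 vKO. In control low-RNA germ barcodes the heat shock genes Hspa8 and Hsp90aa1 gave 2629 and 2581 of the 7423 CPM. The germ sum thus describes mostly heat shock genes, and the immediate early gene Fos was lower in low-RNA germ barcodes of control.

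Across the 2546 genes compared in both, germ and Clu-rich log2 ratios had Pearson's r of 0.87 in control and, over 2601 genes, 0.75 in Brca1 vKO, as a description across genes. Of the genes 2-fold lower in control, 164 were shared, 24.4% of the germ list and 40.9% of the Clu-rich list.

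Genes per barcode also differed at equal depth. Thinned to 1000 UMIs, low-RNA germ barcodes had a median of 660.5 genes in control and 667 in Brca1 vKO, against 740 and 742 in deep germ barcodes and 678 and 705.5 in low-RNA Clu-rich barcodes.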
